A study of Mus musculus with 3 samples.

Results

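Endoderm and mesoderm descend from a shared precursor, the mesoendoderm of the primitive streak, and Brachyury is a T-box transcription factor made in these cells. Definitive endoderm, the source of the gut tube, liver and pancreas, forms from that precursor under strong Nodal or Activin signalling. It is recognised by a small set of genes. Sox17, Gata4, Gata6 and Hhex encode transcription factors and Cer1 a secreted antagonist of Nodal and BMP ligands. Cxcr4 encodes the receptor of the chemokine Cxcl12, widely used as a surface marker of definitive endoderm. The results concern the Brachyury-bound regions at these 6 genes. A region was assigned to a gene when its midpoint lay within 100 kb, to either side, of the gene's start position on mouse build mm9. This rule uses position alone and took 5 of the 3160 regions in the deposited list.

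The study profiled mesoendoderm cells made from D3 mouse embryonic stem cells, a line of (C3H/HeH x 101/H)F1 origin per the labels, by Activin A treatment in serum-free culture. Chromatin was immunoprecipitated and sequenced (ChIP-seq, which maps where a protein sits on DNA) in 3 libraries, 1 each for Brachyury antibody 1, Brachyury antibody 2 and a mock precipitation with pre-immune IgG. Both antibodies came from rabbits given residues 249 to 436 of Brachyury as a GST fusion, so they share their antigen. All 3 libraries share the cell line and the treatment, there is 1 library per group, and a single list of positions stands for the series. The list has no signal, score or value per library, so the error of a region, its strength and its level in the mock library could not be given. Read depth is unknown, and a gene without a listed region is not thereby shown to be unbound. The list also holds no expression values, so neither the identity of the cells nor the activity of the 6 genes was measured.

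Of the 6 genes, 4 had at least 1 region in the window and 2 had none. Sox17, Gata4 and Hhex had 1 region each, Cer1 had 2, and Gata6 and Cxcr4 had 0. Each of the 4 genes with a region had one close to its start, with a midpoint between 0.768 and 6.53 kb away. The fifth region lay 68.6 kb from the start of Cer1. The start positions are known only to 0.01 Mb, so each distance carries a possible error of 5 kb. The midpoints of the close regions of Sox17 and Gata4 stay on the lower-coordinate side of the start within that error. For those of Hhex and Cer1 the side cannot be told. The nearer edge of the Gata4 region lay 4.70 kb from the given start, so that region could still reach the true start.

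**Figure D1:**
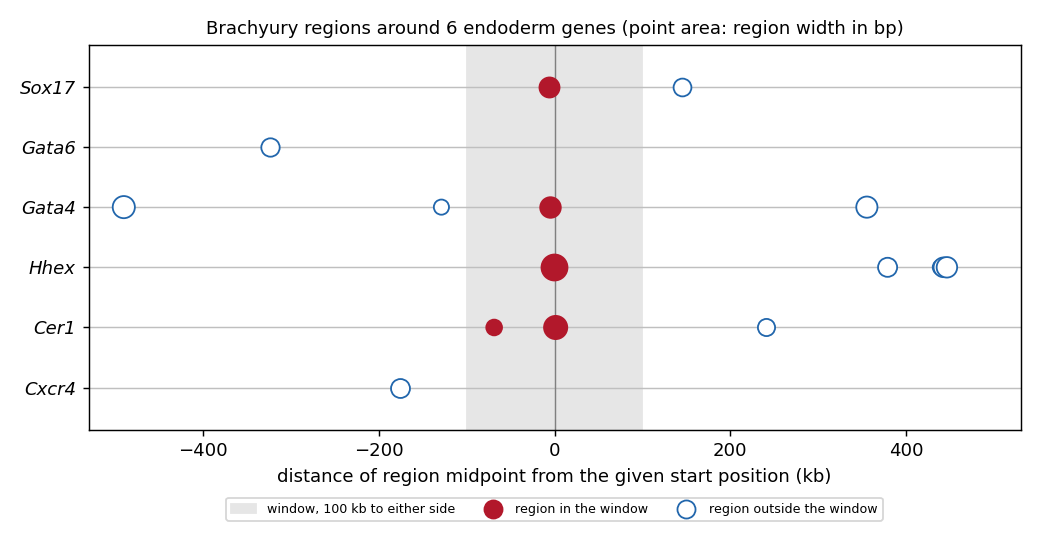
Regions around the 6 start positions, with the distance of each region's midpoint from the position on the x axis (kb, higher coordinates to the right) and 1 line per gene. Point area follows region width. Filled red points are the 5 regions in the shaded windows and open blue points are regions farther out, up to 500 kb; the lines of Gata6 and Cxcr4 are empty inside the shading.

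As a background, windows of the same 200 kb length were laid along the same chromosome, shifted from each start by multiples of that length. Of these 3910 shifted windows, 19.2% held at least 1 region and 4.45% held at least 2. The 4 of 6 genes with a region stand beside 1.20 genes, the number obtained by adding up, over the 6 genes, the share of shifted windows with a region on each gene's own chromosome. The 5 regions, with an exact Poisson 95% interval of 1.62 to 11.7 that covers counting error only, stand beside a sum of 1.58 over the mean counts of the shifted windows. These windows were laid without regard to genes. With shifts of at most 5 Mb, 23.3% of windows held at least 1 region, and the sums of 1.20 and 1.58 were not recomputed for such nearby windows. Whether other gene starts hold a region as often was not analysed here, so the contrast describes the 6 windows against their chromosomes and not against other genes.

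In proportion to the shifted windows, the count was highest in the smallest window, but numbers above the shifted ones were not confined to it. Within 15 kb, a distance chosen after the distances had been seen, there were 4 regions at 4 genes, while 3.52% of 26134 shifted windows of that size held a region and their mean counts summed to 0.236 over the 6 genes. Moving a start by its rounding error of 5 kb leaves all 4 of these regions within 15 kb, since the farthest, at Sox17, would then lie at 11.5 kb. Between 15 and 50 kb there were 0 regions against a shifted sum of 0.553, and between 50 and 100 kb there was 1 against 0.788. Beyond the windows, 3 regions lay between 100 and 200 kb (shifted sum 1.57) and 8 between 200 and 500 kb (shifted sum 4.62). The numbers were above those of the shifted windows in each of these distance bands except the one from 15 to 50 kb. In the band from 50 to 100 kb this rests on 1 region. The 8 regions between 200 and 500 kb include those of Hhex at 379, 439, 442 and 446 kb, the last 3 of them close together. The excess in these bands is therefore not shown to be spread over the 6 genes. The ratio was 16.9 within 15 kb, 5.07 within 50 kb, 3.17 within 100 kb and 2.06 within 500 kb. Their exact Poisson intervals, for counting error only, were 4.61 to 43.3, 1.38 to 13.0, 1.03 to 7.40 and 1.18 to 3.34. Only those at 15 and 500 kb do not overlap, which is no test of a difference. All these windows hold the same 4 close regions, and the sizes of 15 and 500 kb were chosen after seeing the data. The order of the ratios therefore only describes these regions. No test was made of these ratios, since the genes were chosen with earlier results of these data known.

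**Figure D2:**
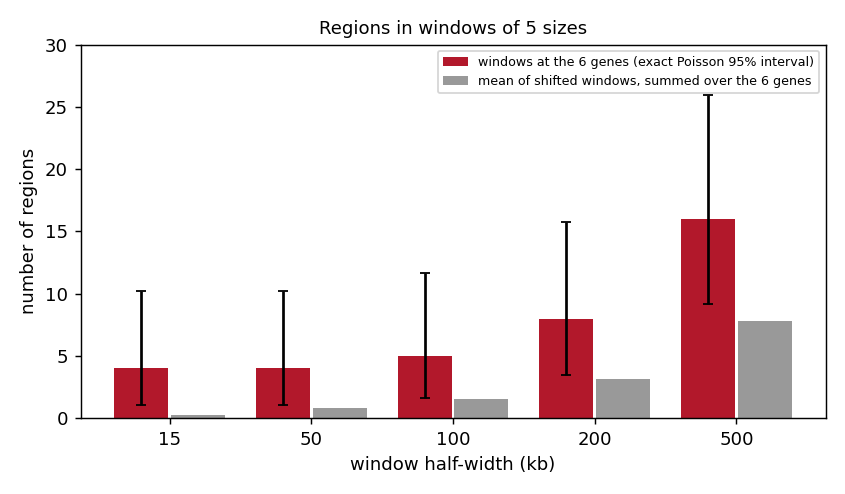
Number of regions in windows of 5 sizes around the 6 starts (red bars, with exact Poisson 95% intervals for counting error only) beside the mean number in shifted windows summed over the 6 genes (grey bars). The x axis is the distance to either side in kb. The red bar stands at 4 for both 15 and 50 kb, and reaches 16 at 500 kb, where the grey bar is at 7.77.

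Sequences immediately upstream of a start are shown for the 3 genes with an entry in the RefSeq promoter table of build GRCm38.p6. Those of Hhex and Cer1 are given because a Brachyury region lay within the rounding error of their start, and that of Cxcr4 because no region lay in its window. The deposited regions are on mm9 and the promoter sequences on GRCm38.p6, so whether a region covers these bases was not determined. Each is 250 bases, written 5′ to 3′ on the strand of the gene and ending just before the annotated start, with CpG dinucleotides in capitals. Their positions on GRCm38.p6 are chr19:37434591-37434840 on the plus strand for Hhex, chr4:82885152-82885401 on the minus strand for Cer1 and chr1:128592300-128592549 on the minus strand for Cxcr4.
Hhex: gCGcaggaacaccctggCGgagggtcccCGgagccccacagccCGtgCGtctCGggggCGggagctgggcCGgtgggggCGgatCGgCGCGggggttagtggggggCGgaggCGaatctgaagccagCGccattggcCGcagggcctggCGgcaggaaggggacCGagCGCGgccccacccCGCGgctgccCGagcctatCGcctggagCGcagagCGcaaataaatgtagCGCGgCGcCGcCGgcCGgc
Cer1: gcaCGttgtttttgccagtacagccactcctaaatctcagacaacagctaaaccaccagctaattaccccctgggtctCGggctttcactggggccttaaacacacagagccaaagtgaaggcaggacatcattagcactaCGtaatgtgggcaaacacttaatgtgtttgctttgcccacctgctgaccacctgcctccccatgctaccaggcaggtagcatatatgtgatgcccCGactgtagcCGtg
Cxcr4: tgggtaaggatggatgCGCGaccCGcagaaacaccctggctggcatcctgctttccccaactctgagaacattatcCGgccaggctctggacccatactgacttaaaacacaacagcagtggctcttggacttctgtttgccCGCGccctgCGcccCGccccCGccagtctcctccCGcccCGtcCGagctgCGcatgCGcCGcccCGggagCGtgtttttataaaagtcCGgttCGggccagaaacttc

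The sequences of Hhex and Cer1, both with a region close by, differed widely in base composition. The Hhex sequence held 32 CpG dinucleotides and was 76.0% G or C, with fewer CpG in 95.4% of the 32851 promoters in the table. The Cer1 sequence held 5 CpG and was 51.6% G or C, close to the medians of 6 CpG and 52.4% over all promoters. The Cxcr4 sequence, with no region in its window, lay between them at 19 CpG and 61.2%. The T-box half-site, the short word that Brachyury and other T-box proteins recognise, was searched as TCACACCT on both strands. It was found in 0 of the 3 sequences and in 1.12% of all promoters. Its inner part CACACC, which every half-site also contains, was found in 0 of 3 and in 16.3% of all. The words searched for GATA, FOXH1 and SOX factors were absent from the 3 sequences too, and sites of further endoderm regulators were not searched. The GATA words AGATAA and TGATAA stood in 9.99% and 7.94% of all promoters, the FOXH1 word AATNNACA in 10.9% and the SOX word ATTGTT in 9.42%, and each in 0 of 3. An absent word says only that these letters are not in this window of 250 bases, and the regions themselves were not searched.

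Sox17, an HMG-box factor required for definitive endoderm, had 1 region at chr1:4482974-4483961 (mm9), 988 bp wide. Its midpoint lay 6.53 kb to the lower-coordinate side of the given start at 4.49 Mb, a distance that the rounding could place anywhere from 1.53 to 11.5 kb. It is the first region of chromosome 1 in the list, so no region lies on its lower side. The next, 778 bp wide at chr1:4634861-4635638, fell outside the window at 145 kb, and the one after that at 1942 kb. On this chromosome, which held 210 regions at 1.11 per Mb between the outermost, 17.1% of shifted windows had a region. In the GRCm38.p6 gene order, the nearest protein-coding neighbours of Sox17 are Rp1 and Mrpl15.

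Gata4 and Gata6, zinc-finger factors active in endoderm and heart, gave different counts. At Gata4 a region of 1040 bp lay at chr14:63864260-63865299, with its midpoint 5.22 kb below the given start at 63.87 Mb (0.221 to 10.2 kb with the rounding). A second region near Gata4 fell just outside the window, at 129 kb, with a width of 563 bp, and within 500 kb there were 4 regions in all. On chromosome 14, 19.4% of shifted windows held a region. Gata6, whose start was given at 11.05 Mb of chromosome 18, had none within 100 kb. Its nearest region, 829 bp wide at chr18:10725450-10726278, lay 324 kb away, and it was the only 1 within 500 kb. A window with no region was the usual case on chromosome 18, where 82.8% of shifted windows were empty. The neighbours in the gene order are Neil2 and Blk for Gata4, and Mib1 and Rbbp8 for Gata6.

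Hhex, a homeobox factor of anterior endoderm and of the liver and thyroid buds, had the widest of the 5 regions. It measured 1655 bp at chr19:37508405-37510059 and covered the given start at 37.51 Mb, with a midpoint 0.768 kb below it. With the rounding, the midpoint could lie up to 5.77 kb from the start. Only 58 regions of the list were wider. It stood alone: the next region on the higher side was 379 kb away, followed by a group of 3 between 439 and 446 kb, and the next on the lower side was 3163 kb away. Chromosome 19 was the densest of the 5 chromosomes concerned, at 1.94 regions per Mb, and 26.8% of its shifted windows held a region. Kif11 and Exoc6 are the neighbouring genes.

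Cer1 was the only 1 of the 6 genes with 2 regions in its window. The first measured 1323 bp at chr4:82530638-82531960, with a midpoint 1.30 kb above the given start at 82.53 Mb and its nearer edge 0.638 kb from it. The second was narrower, 607 bp at chr4:82461050-82461656, and lay 68.6 kb below the start, a distance of 63.6 to 73.6 kb with the rounding. As Cer1 is on the minus strand in the promoter table, lower coordinates are downstream of its start. The gene order there continues to Zdhhc21 on the lower side and Frem1 on the higher side. The distal region counts for Cer1 by the window rule alone, and whether it belongs to a neighbouring gene instead was not determined. On chromosome 4, 22.2% of shifted windows held at least 1 region and 4.76% at least 2. The next regions beyond the window lay 241 kb above and 921 kb below the start.

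Cxcr4, the receptor in the set, had no region within 100 kb of its start at 130.49 Mb of chromosome 1. The nearest, 880 bp wide at chr1:130313255-130314134, lay 176 kb on the lower side, and the next on the higher side was 1869 kb away. Of the shifted windows on chromosome 1, 82.9% were likewise empty. Dars and Thsd7b are the neighbours of Cxcr4 in the gene order.

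The limit of 100 kb fell in a gap between regions. The farthest region inside it was that of Cer1 at 68.6 kb, and the nearest ones outside it were those of Gata4 at 129 kb, Sox17 at 145 kb and Cxcr4 at 176 kb. No region could therefore enter or leave a window through the rounding of the starts.

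The 4 regions close to a start were wider than most of the list. Their widths were 988 bp at Sox17, 1040 bp at Gata4, 1323 bp at Cer1 and 1655 bp at Hhex, against a list median of 850 bp (quartiles 680 and 1019 bp, SD 299 bp between regions). Of all regions, 72.0% were narrower than that of Sox17, 77.5% than that of Gata4, 93.1% than that of Cer1 and 98.1% than that of Hhex. The distal Cer1 region, at 607 bp, was wider than only 14.7% of the list. The median of the 5 was 1040 bp. The first regions met beyond the windows, 11 in number, had a median width of 778 bp and ran from 234 to 1104 bp, and 3 of them were wider than the list median. The close and the outer regions overlapped in width, since 1 outer region exceeded 988 bp. Widths in the whole list ran from 6 to 4180 bp. Whether a width is that of a whole peak or of the stretch shared by peaks of both antibodies is not stated, and it is no measure of signal. The widths were not tested, and how regions near other gene starts compare was not analysed here.

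**Figure D3:**
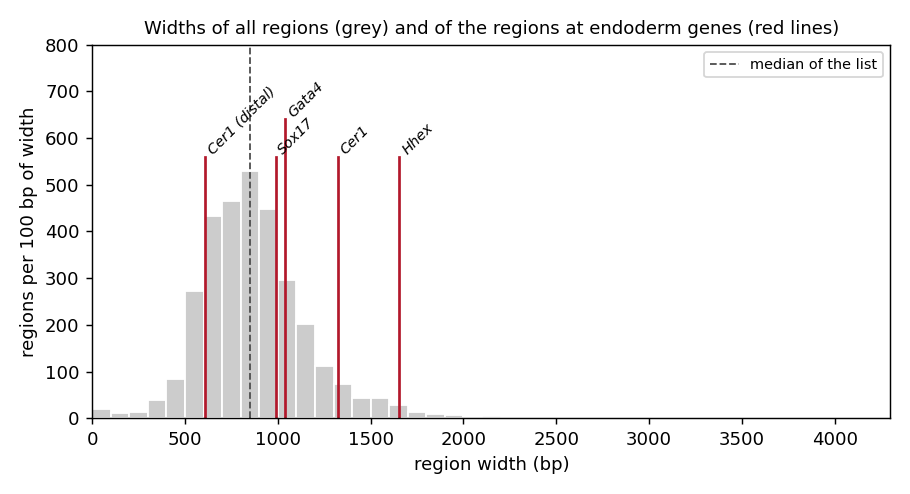
Widths of all 3160 regions (grey, number of regions per 100 bp of width, x axis in bp) with the list median as a dashed line. Red lines mark the 5 regions at endoderm genes; 4 lie above the median of 850 bp and the distal region of Cer1, at 607 bp, lies below it.

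Regions at these genes did not sit in dense groups. The distance from each to the nearest other region of the list was 69.9 kb between the regions of Cer1, 123 kb at Gata4, 152 kb at Sox17 and 380 kb at Hhex. The median over the 5 was 123 kb, beside 131 kb over the whole list. None had a neighbour within 1 kb, so merging such neighbours left 5 regions. The share of the whole list with such a neighbour was not counted, so its absence is not shown to be particular to these regions.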

How the data were processed

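The deposited file is 1 list of 3160 regions with 3 columns and no header (chromosome, start, end, in base pairs). The authors' positions are its only values. The submitters' processing notes name Bowtie, MACS2 and build mm9 without further detail. The way in which peaks of both antibodies were joined into 1 list, and the part of the mock library in it, is not given in the sources used here. Starts were raised by 1 base to count from 1. The 6 genes and their rounded mm9 starts were supplied for this work; genes, windows and motifs were chosen with earlier results of these data known. All 6 genes are named with every region in their windows, neighbours being the nearest protein-coding gene on each side in the RefSeq GRCm38.p6 table. Promoters of 3 genes (Hhex, Cer1, Cxcr4) matched by symbol; Sox17, Gata4 and Gata6 did not. Shifted windows lay wholly between the outermost regions of the chromosome and off the 6 gene windows; chromosome 1 entered with a grid for each of its 2 genes. No test across samples was possible. The counting in windows was first tried on simulated lists, with regions placed evenly at random along each chromosome, with and without a region added near each start. This checks the counting only, since the regions of the deposited list need not be spread in that way. Other window sizes, starts moved by 5 kb, overlap in place of midpoints, merged and wider regions were tried. Python 3.11.15, numpy 2.4.6, pandas 2.3.3, scipy 1.17.1 and matplotlib 3.10.9 were used.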

Additional observations from a re-analysis of the deposited data

How the results depend on the processing

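No paired analysis was possible because there is a single library in each group. Of 87 recomputed values, 74 stayed within their limits (counts within 1.5 times, widths and distances within 1 SD between regions or genes, the share within its Wilson 95% interval) and 13 moved. Counts for single genes made up 48 of the 87, and 43 of these stayed. Merging neighbours within 1 kb and moving the starts by 5 kb could not change the counts in the windows of 100 kb. The tally is therefore no measure of robustness. The limit for distance is wide: the median distance from a start to its nearest region, 5.88 kb over the 6 genes, was counted as within it at 10.9 kb with all starts 5 kb higher, and was 5.27 kb with all starts 5 kb lower. The number of genes with a region was 4, except for 5 with windows of 200 kb to either side, when Cxcr4 was added, and 6 with 500 kb. The number of regions was 4 or 5, except for 8 with windows of 200 kb and 16 with 500 kb. The share of shifted windows with a region was 10.7% with windows of 50 kb to either side, 32.4% with 200 kb, 3.52% with 15 kb, 53.2% with 500 kb, 10.4% when narrower regions than the median were left out and 23.3% with shifts of at most 5 Mb. The first 5 of these follow from the size of the window or the number of regions; for the last the cause was not tested. The sizes of 15 and 500 kb were chosen after seeing the data.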
